A study of Mus musculus with 4 samples.

Results

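The BCL2 family sets the threshold at which a cell undergoes mitochondrial apoptosis, and 10 of its genes were followed here: Bcl2, Bcl2l1, Mcl1, Bax, Bak1, Bcl2l11, Bbc3, Pmaip1, Bid and Bad. They were taken by gene symbol from the array annotation, and every probe was kept whatever its values. The choice of these genes was made with earlier results of these data known. All 10 were found, with 13 probes, among 31703 genes or other named transcripts on the array. Bcl2l1, Mcl1 and Bad had 2 probes each and the other 7 genes had 1 each.

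RNA came from C57BL/6 mouse progenitors that give rise to red cells and megakaryocytes. The 4 samples were Ezh2-null (Ezh2-/-) adult bone marrow, wild-type adult bone marrow, Ezh2-null fetal liver at E14.5 and wild-type fetal liver at E14.5. Ezh2 encodes the methyltransferase of Polycomb repressive complex 2, which marks histone H3 for gene silencing. Each combination of source and genotype was 1 one-colour Agilent array, so a difference between 2 arrays has no replicate check and is described by its size. The labels name neither the deletion strategy, the sorting markers nor the number of animals behind a sample. The p-values quoted below come from additive fits of source and genotype over these arrays. With 1 array per group, the only residual is how far the genotype difference differs between the sources, with its variance shared across genes. They do not measure a spread between replicates.

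Proteins of the family act in 3 layers. The guardians Bcl2, Bcl2l1 (which encodes BCL-XL) and Mcl1 hold the effectors Bax and Bak1 in check, and the BH3-only proteins (here Bcl2l11, which encodes BIM, Bbc3, which encodes PUMA, Pmaip1, which encodes NOXA, Bid and Bad) neutralise the guardians or activate the effectors directly. In red cell precursors, erythropoietin signalling through Jak2 and Stat5 sustains Bcl2l1, and BCL-XL keeps maturing erythroid cells alive. Mcl1 is needed by earlier haematopoietic progenitors, and BIM is a main death signal when cytokines are withdrawn.

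The 3 probes printed next are those that read coding sequence where a member differed most between arrays, or where 2 probes of 1 gene could be set side by side. Each is 60 bases, written 5′ to 3′ in lower case as the array annotation gives it, with coordinates of build mm9. The Bcl2l11 probe aligned from 127972893 to 127983988 on chromosome 2, a span of 11096 bases, so it crosses an exon junction, and it lies in the stretch that encodes the BH3 domain and what follows. The Bcl2l1 probe lay on chromosome 2 from 152655185 to 152655244, in the coding sequence. The Bad probe aligned from 7016918 to 7017403 on chromosome 19, a span of 486 bases, and likewise crosses a junction.
Bcl2l11 probe: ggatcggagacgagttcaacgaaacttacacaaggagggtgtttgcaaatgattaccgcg
Bcl2l1 probe: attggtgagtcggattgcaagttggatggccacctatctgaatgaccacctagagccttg
Bad probe: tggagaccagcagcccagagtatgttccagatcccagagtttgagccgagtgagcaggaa

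Ezh2 acts at CpG-rich promoters, so the 250 bases before each RefSeq transcript start were examined (RefSeq, build GRCm38.p6). Of the 10 members 9 were matched, with 15 promoter windows. Pmaip1 was not matched and is named only. Of the 15 member windows, 14 held more CpG dinucleotides than the median of 6.00 over all 32851 windows, against 46.3% of all windows. The member windows ranged between 0 and 37 CpG, with a median of 21.0. The lowest was 1 of the 3 Bcl2l1 windows, and the highest was a Bbc3 window. The windows of Bcl2l11 are shown because this gene gave the widest differences below. They held 24 and 30 CpG, each written as capital CG.
Bcl2l11 promoter 1, chr2:128125788-128126037, plus strand: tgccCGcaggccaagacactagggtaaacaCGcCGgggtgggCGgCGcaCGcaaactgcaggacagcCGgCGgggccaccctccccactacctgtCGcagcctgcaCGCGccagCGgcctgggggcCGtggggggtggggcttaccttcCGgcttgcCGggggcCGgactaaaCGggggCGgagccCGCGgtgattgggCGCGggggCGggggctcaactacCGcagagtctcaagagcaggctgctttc
Bcl2l11 promoter 2, chr2:128127325-128127574, plus strand: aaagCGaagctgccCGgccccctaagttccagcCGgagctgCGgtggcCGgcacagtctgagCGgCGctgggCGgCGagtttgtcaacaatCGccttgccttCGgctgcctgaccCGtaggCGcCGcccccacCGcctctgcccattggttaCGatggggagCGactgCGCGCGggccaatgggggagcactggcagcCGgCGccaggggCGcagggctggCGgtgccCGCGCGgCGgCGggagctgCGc

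Motifs of factors known to act on the family were searched on both strands of the same windows. The FoxO motif GTAAACA was in 2 of 15 member windows, 1 of Bcl2l11 and 1 of Bbc3, and in 3.17% of all windows. The GATA motif AGATAA was in 1 member window, of Bcl2l1, and in 9.99% of all. None of the 15 held the STAT motif TTCNNNGAA (7.02% of all), the AP-1 motif TGACTCA (4.46%) or the p53 motif with up to 2 mismatches (0.134%). The matches are shown with 10 bases on each side and the motif in capitals; the Bcl2l11 match began 227 bases before the start, the Bbc3 match 167 and the Bcl2l1 match 41. A match is a description of the letters, and these arrays do not show whether a factor was bound there.
Bcl2l11, chr2:128125801-128125827, plus strand: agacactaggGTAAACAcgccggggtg
Bbc3, chr7:16310084-16310110, plus strand: ctggcgggttTGTTTACaaacaatggg
Bcl2l1, chr2:152828515-152828540, minus strand: tgtgacccaaAGATAAagagagcaga

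Signals are spot intensities brought to an equal 75th percentile over the 12880 probes that every array detected. A probe counts as detected, or well above background, by a flag of the scanner software. This held for 41.8% of 39418 probes on each marrow array, 46.4% on the null and 39.0% on the wild-type fetal liver array. The lowest detected signal, called the floor of an array, was 9.79 for null marrow, 11.1 for wild-type marrow, 12.6 for null fetal liver and 19.3 for wild-type fetal liver. Ezh2 itself, by 1 probe starting 2558 bases into its transcript, read 70.0 in null and 35.4 in wild-type marrow, and 194 in null and 33.5 in wild-type fetal liver. It was thus 1.98-fold and 5.79-fold brighter on the arrays labelled Ezh2-null. The labels do not say whether this probe lies inside the deleted part. The genotypes were therefore not checked, and every direction below rests on the labels. Progenitor markers were present, with 9 of 10 genes well above background on both marrow arrays and on wild-type fetal liver and 10 of 10 on null fetal liver. The granulocyte and macrophage genes Elane, Ctsg, Ltf, Lyz2, S100a8 and S100a9 and the liver genes Alb, Afp, Ttr, Fgb and Ahsg were well above background on no array. Other genes of the same lists were detected, 3 or 4 of 10 and between 1 and 4 of 9 per array, so such cells are not excluded. Their levels are given below. In bulk samples such as these, fewer cells of a type and less RNA per cell cannot be told apart.

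In all, 7 genes were well above background on every array: Bcl2, Bcl2l1, Mcl1, Bax, Bak1, Bbc3 and Bad, by 8 of the 13 probes. The other 3, all BH3-only, were Bcl2l11 on null marrow and wild-type fetal liver, Bid on both marrow arrays, and Pmaip1 on null fetal liver alone. Probes differ in brightness for reasons other than abundance, so levels are compared between arrays only, within 1 probe. Each member probe was printed once per array. For probes printed repeatedly, spots on 1 array had a median log2 SD of between 0.138 and 0.213 at levels under 100, and of between 0.0499 and 0.0715 at 100 or more. That figure is the error within an array alone.

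**Figure D1:**
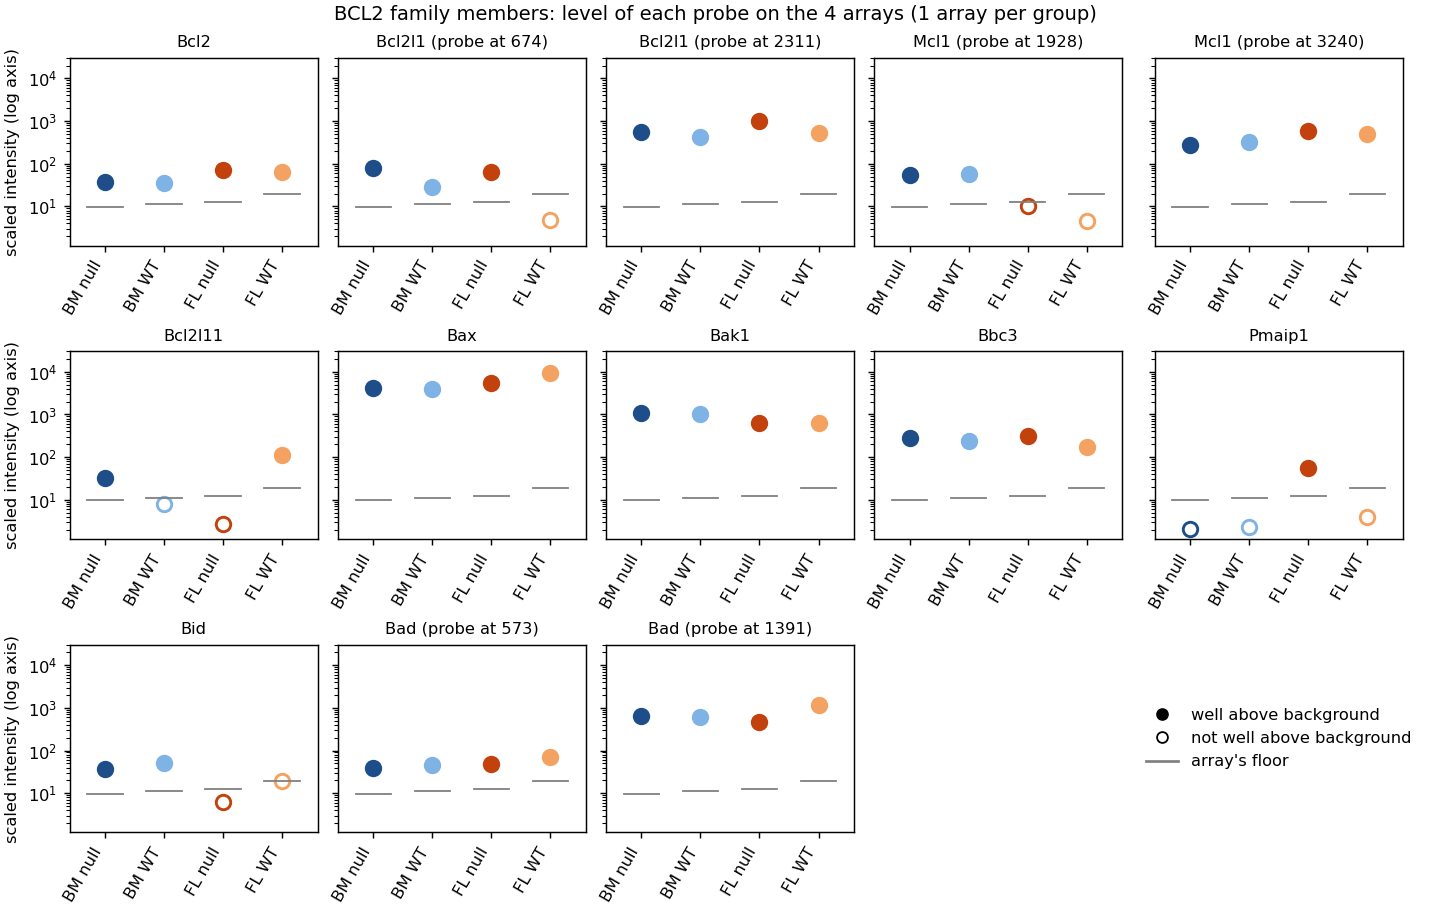
Scaled intensity (log axis) of each of the 13 member probes on the 4 arrays: Ezh2-null and wild-type bone marrow (BM), then Ezh2-null and wild-type fetal liver (FL). Each point is 1 array, open points were not well above background, and grey bars are the floor of each array; Bcl2l11 and Pmaip1 are on some arrays only, while Bak1 and Bcl2 differ more by source than by genotype on this scale; the direction for Bcl2 between the wild types turned with spike-in scaling.

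Among the guardians, Bcl2 read 37.5 in null and 36.0 in wild-type marrow, and 73.1 in null and 64.0 in wild-type fetal liver (mm9 chromosome 1, 108608970 to 108609029). Both marrow arrays lay below both fetal liver arrays on this scale, by 1.95-fold in null and 1.78-fold in wild type. Relative to the median of all genes these differences were −0.45 and −0.25 log2, and with spike-in scaling −0.17 in null and 0.51 in wild type, so no direction between sources is given. Between genotypes it differed by 0.06 log2 in marrow and 0.19 in fetal liver, about as much as repeated spots on 1 array do at this brightness.

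Bcl2l1 was brighter on the null array with both probes and in both sources. The probe that stood for the gene (chromosome 2, 152606404 to 152606463, starting 2311 bases into the transcript) read 564 in null and 420 in wild-type marrow, and 988 in null and 521 in wild-type fetal liver. That is 1.34-fold higher in null marrow and 1.90-fold higher in null fetal liver, both under 2-fold. The coding-sequence probe printed above, starting at base 674, read 81.5 in null and 29.1 in wild-type marrow, and 62.7 in null fetal liver against 4.79, not well above background, in wild-type fetal liver. It was 2.80-fold higher in null marrow and at least 3.25-fold higher in null fetal liver. The probes thus shared the direction and disagreed on whether the difference passed 2-fold. In fetal liver the gene passed 2-fold with 5 of 12 other processing settings, and lay between 0.76 log2 and 2.32 over the 12, the highest with both probes averaged. That average took the undetected 4.79 as it was, without the floor, so it is not a bound.

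Mcl1, by the probe that stood for it (chromosome 3, 95466855 to 95466914), read 279 in null and 317 in wild-type marrow, and 588 in null and 495 in wild-type fetal liver. Both marrow arrays were below both fetal liver arrays, by 2.11-fold in null and 1.56-fold in wild type. The other Mcl1 probe (95465543 to 95465602) went the opposite way. It read 53.8 in null and 58.5 in wild-type marrow, and 10.5 and 4.51 in null and wild-type fetal liver, neither well above background. By that probe Mcl1 was at least 4.29-fold higher in null marrow than in null fetal liver, and at least 3.03-fold higher in the wild types. No direction between sources is therefore given for Mcl1. With both probes averaged, the null difference was 0.64 log2 in place of −1.08, and the undetected 10.5 entered without the floor. Between genotypes the probes measured on both arrays stayed within 0.25 log2 on this scale. With spike-in scaling the fetal liver genotype difference was 0.75 log2.

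Among the effectors, Bax forms pores that open the outer mitochondrial membrane. It read 4263 in null and 3907 in wild-type marrow, and 5393 in null and 9485 in wild-type fetal liver (chromosome 7, 52717122 to 52717181). Wild-type fetal liver stood above the other 3 arrays: Bax was 1.76-fold lower in null than in wild-type fetal liver, and 2.43-fold lower in wild-type marrow than in wild-type fetal liver. Relative to the median of all genes the second difference was −0.70 log2, under 2-fold, and with spike-in scaling it was 0.06.

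Bak1, which encodes the other pore-forming effector, read 1076 in null and 1054 in wild-type marrow, and 645 in null and 629 in wild-type fetal liver (chromosome 17, 27156807 to 27156866). The 2 genotypes were within 0.04 log2 of each other in both sources. Marrow was 1.67-fold above fetal liver in null and 1.68-fold in wild type, and this direction held under all 12 other settings in both genotypes. Not all of these are separate checks. Bak1 has 1 probe, detected on every array, so other probe rules, background filters and the authors' table left it at 0.74 log2. Since the median gene lay lower in marrow on this scale, Bak1 stood 1.25 log2 above it in null and 1.32 in wild type.

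Bcl2l11 had the widest differences of the 10. Its probe read 31.6 in null marrow and 7.87, not well above background, in wild-type marrow. It read 2.68, not well above background, in null fetal liver and 112 in wild-type fetal liver. The gene was therefore seen on 1 array of each source, the null one in marrow and the wild-type one in fetal liver. It was at least 2.85-fold higher in null than in wild-type marrow and at least 8.92-fold lower in null than in wild-type fetal liver. Between sources it was at least 2.52-fold higher in null marrow than in null fetal liver, and at least 10.1-fold lower in wild-type marrow than in wild-type fetal liver. The fetal liver difference passed 2-fold, in the same direction, under all 11 other settings, at −1.54 log2 or beyond. Among these, other probe rules and the authors' table left it at −3.16, so they are not separate checks. With normexp background correction the marrow genotype difference was 0.50 log2 and the difference between the null sources 0.19, both under 2-fold. All of this rests on 1 probe and 1 spot per array.

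Bbc3, a p53 and FoxO target, read 288 in null and 244 in wild-type marrow, and 311 in null and 176 in wild-type fetal liver (chromosome 7, 16903403 to 16903462). Wild-type fetal liver was the lowest, 1.77-fold below null fetal liver, and Bbc3 was 1.18-fold higher in null than in wild-type marrow. Once the position trend was removed, the fetal liver difference was 1.04 log2, just past 2-fold.

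Pmaip1, a p53 target whose product binds MCL1, read 2.07 in null and 2.25 in wild-type marrow, and 56.6 in null and 4.02 in wild-type fetal liver. Only the null fetal liver value was well above background. It was at least 2.93-fold higher in null than in wild-type fetal liver and at least 5.78-fold lower in null marrow than in null fetal liver. No value can be given for the marrow genotypes or for the wild types of both sources. With normexp the fetal liver difference was 0.28 log2.

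Bid, which links death receptors to mitochondria once caspase-8 has cut it, read 36.1 in null and 49.9 in wild-type marrow (chromosome 6, 120843464 to 120843523). In fetal liver it was not well above background, at 6.13 in null and 18.9 in wild type. Bid was at least 2.87-fold higher in null marrow than in null fetal liver and at least 2.58-fold higher in wild-type marrow than in wild-type fetal liver. With normexp these were 0.24 and 0.00 log2. In marrow it was 1.38-fold lower in null than in wild type.

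Bad, whose product is held inactive by survival kinases, read 635 in null and 610 in wild-type marrow, and 456 in null and 1145 in wild-type fetal liver by the probe that stood for it (chromosome 19, 7026323 to 7026382). It was 2.51-fold lower in null than in wild-type fetal liver, and null and wild-type marrow were within 0.06 log2. The junction probe printed above read 38.4 in null and 46.3 in wild-type marrow, and 49.6 in null and 72.4 in wild-type fetal liver. By this probe the fetal liver difference was 1.46-fold, in the same direction and under 2-fold, and wild-type fetal liver was again the highest of the 4 arrays. With spike-in scaling the first probe gave −0.83 log2.

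In fetal liver, 9 members could be compared between genotypes: Pmaip1 was at least 2-fold higher in null, Bcl2l11 and Bad were lower, and 6 were under 2-fold. The background was 28.9% of 16257 genes at least 2-fold apart (15.4% higher and 13.5% lower), so 3 of 9 members was close to the share of all genes. The member median was 0.19 log2, against −0.14 over all genes. By layer, the 3 guardians lay between 0.19 and 0.93 log2, the effectors were at −0.81 and 0.04, and the BH3-only genes ran between −3.16 and 1.55. The lowest guardian, Bcl2, was at −0.23 with normexp. In marrow, 9 members could be compared and 1, Bcl2l11, was at least 2-fold apart, higher in null. The background there was 12.3% of 15279 genes (4.54% higher, 7.74% lower), so 1 of 9 was again close to it, and the member median was 0.06 against −0.03 log2.

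**Figure D2:**
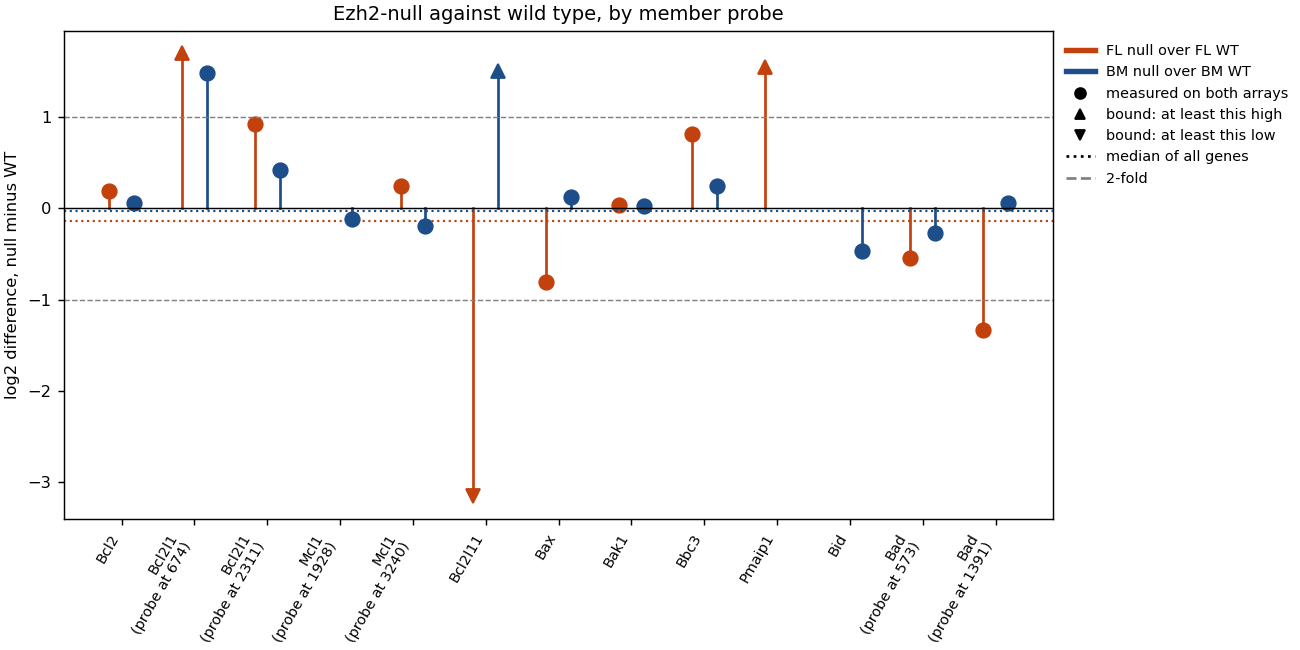
Log2 difference of Ezh2-null minus wild type for each member probe in fetal liver (FL) and bone marrow (BM), 1 array each, with dotted lines at the median of all genes (−0.14 and −0.03) and dashed lines at 2-fold. Triangles are bounds where 1 array was not well above background, and a missing mark means that neither was; Bcl2l11 points down in fetal liver (−3.16) and up in marrow (1.51).

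The genotype difference itself differed between sources by under 4-fold for all 7 members measured on every array, against 9.40% of 11177 genes at 4-fold or more. Bad came nearest, with −1.33 log2 in fetal liver, 0.06 in marrow and −1.39 between them. Bax followed at −0.94. For Bcl2l11 only bounds exist, at or below −3.16 in fetal liver and at or above 1.51 in marrow, and the difference between them was not tested.

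Across the 4 arrays, limma fitted source and genotype as additive terms with 1 residual degree of freedom. No member passed an adjusted p of 0.05 for genotype (0 of 10, lowest adjusted p 0.995) or source (0 of 10, lowest adjusted p 0.298), and neither did any of the 16250 genes (0 and 0). At an unadjusted p under 0.05 there were 278 genes for genotype and 2649 for source, among them 0 and 1 member. That member was Bid for source, at 1.14 ± 0.42 log2 (SE, bone marrow minus fetal liver; limma adjusted p = 0.298). Bid was well above background on the marrow arrays alone, and its fetal liver values, 6.13 and 18.9, were both raised to 19.3 for this fit. Its SE and p therefore rest in part on that floor and not on measured values. The largest genotype term was Bcl2l11, at −0.91 ± 0.83 log2 (SE), in which the opposite differences of the sources were averaged. The undetected Bcl2l11 values were likewise raised to 19.3. Bak1 was at 0.74 ± 0.40 and Bcl2 at −0.90 ± 0.40 log2 for source.

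The null and the wild-type source comparisons each share an array with each genotype comparison, so their values are given side by side and not as separate support. Between null marrow and null fetal liver, 10 members could be compared: Bcl2l11 and Bid were at least 2-fold higher, and Pmaip1 and Mcl1 lower. The Mcl1 count rests on the probe that stood for the gene, was lost under 7 of 12 other settings and was opposed by the second probe. The background was 37.6% of 16688 genes (10.5% higher, 27.1% lower), and the member median was −0.22 log2 against −0.52. Between wild-type marrow and wild-type fetal liver, 9 could be compared: Bid was higher, Bcl2l11 and Bax lower, against 45.0% of 15382 genes (13.1% higher, 31.9% lower). The member median was −0.64 against −0.58 log2. Neither count, 4 of 10 and 3 of 9, stood clear of the share of all genes. The scale between sources was not settled: the median gene lay at −0.58 log2 between the wild types in the scaling used here and at 0.73 with spike-in scaling, so a member is best read against that median.

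**Figure D3:**
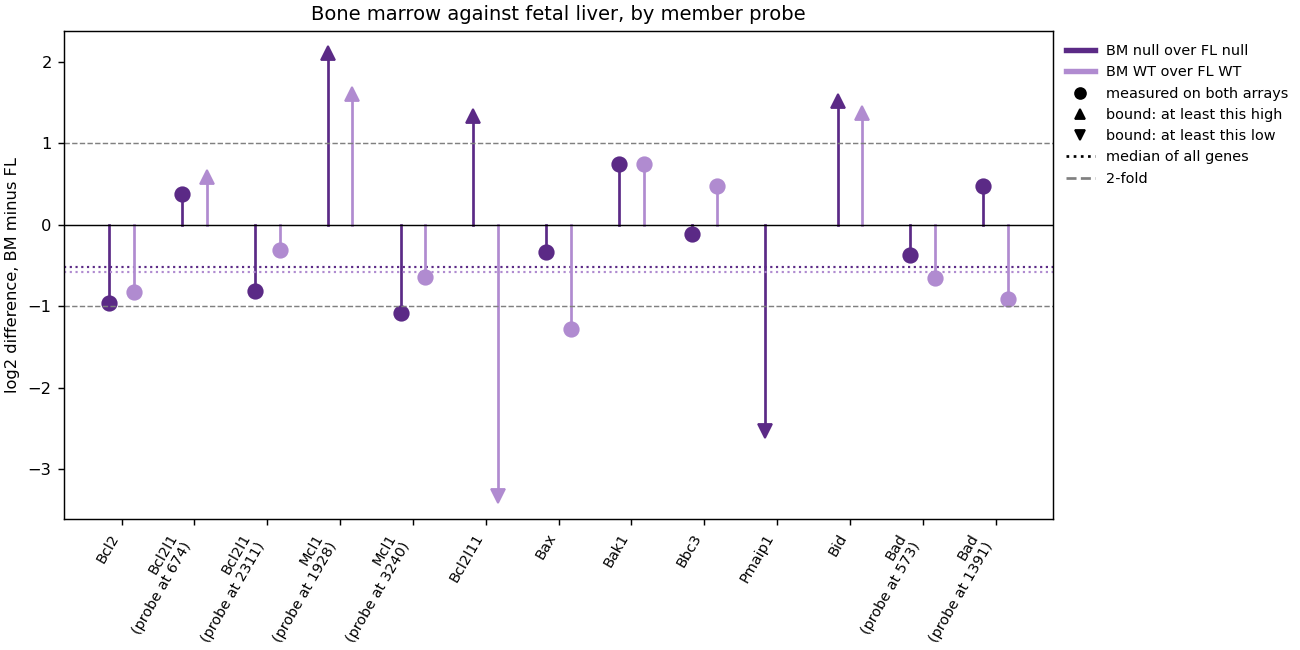
Log2 difference of bone marrow minus fetal liver for each member probe in Ezh2-null and wild-type progenitors, with dotted lines at the median of all genes (−0.52 and −0.58) and dashed lines at 2-fold; triangles are bounds. The 2 Mcl1 probes lie on opposite sides of 0, Bak1 is at 0.74 in both genotypes, and Bcl2l11 is up in null (1.33) and down in wild type (−3.33).

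Position along the transcript moved with the fetal liver genotype difference. Over all genes the median was −0.47 log2 among the 596 genes whose probes started nearest the 5′ end (median base 105) and 0.31 among the 596 farthest from it (median base 6103). In marrow the same ends were at −0.01 and −0.08. Among members, the Bcl2l1 probe at base 674 and the Bcl2l11 probe at base 682 had nearly the same position and lay on opposite sides, at or above 1.70 log2 and at or below −3.16 log2. With the trend removed, Bcl2l11 was at −2.67 log2, Bad at −1.07, Pmaip1 at 1.66, Bcl2l1 at 1.04, Bbc3 at 1.04 and Bax at −0.35. The member count was then 5 of 9 at 2-fold, with Bcl2l1 and Bbc3 added, each just past 2-fold. Of all 16257 genes, 2926 were then higher and 1263 lower.

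**Figure D4:**
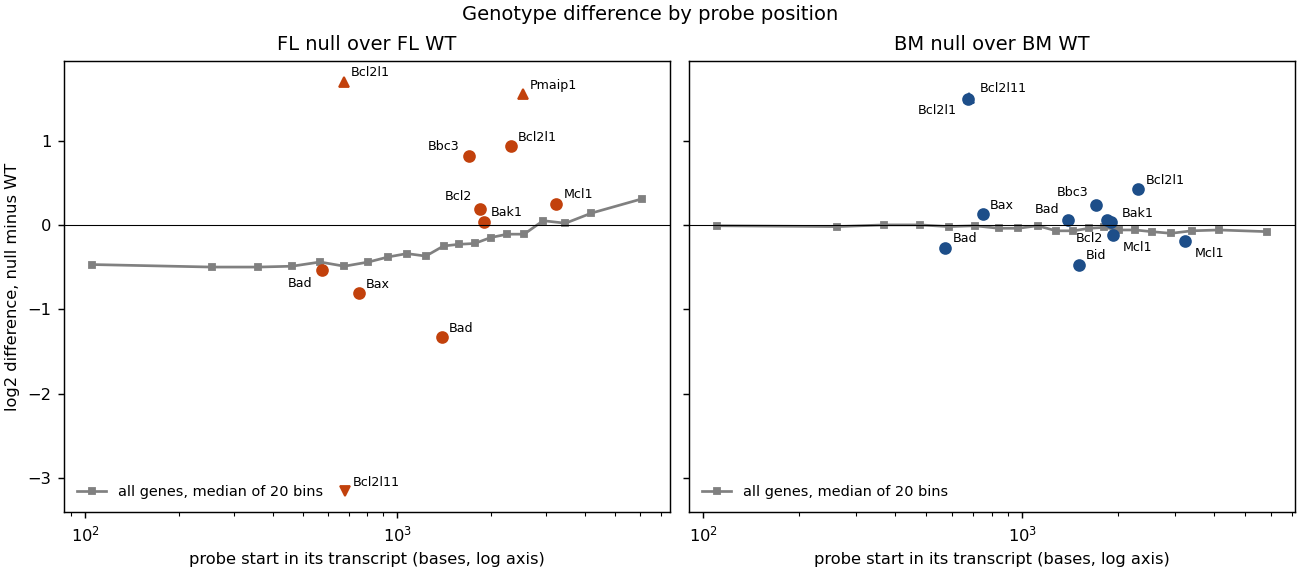
Log2 difference of Ezh2-null minus wild type against where the probe starts in its transcript (log axis), for fetal liver and bone marrow; grey squares are medians of 20 bins of all genes, coloured marks are member probes, and triangles are bounds. The grey line climbs in fetal liver, between −0.47 at the lowest positions and 0.31 at the highest, and is flat in marrow.

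Markers of other cells moved with some of these differences. The summed level of terminal erythroid genes was 17975 in null and 4644 in wild-type marrow, and 34768 in null and 117055 in wild-type fetal liver, with 7 of 8 genes well above background on each array. Wild-type fetal liver, the array where Bax, Bad and Bcl2l11 were highest, was also the highest for these genes. Lymphoid genes summed to 3995 in null and 170 in wild-type marrow (7 and 3 of 10 well above background), and 141 and 286 in null and wild-type fetal liver (3 and 4 of 10). Il7r, Ebf1 and Rag1 were on no array. Null marrow, where Bcl2l11 was seen, thus held the most lymphoid signal. Megakaryocyte and platelet genes summed to 696 in null and 275 in wild-type marrow (5 of 7 each), and 463 and 289 in null and wild-type fetal liver (4 of 7 each), with Ppbp on none. Granulocyte and macrophage genes, of which 3 or 4 of 10 were detected on each array, summed to 53978 in null and 54654 in wild-type marrow, and 85706 and 105557 in null and wild-type fetal liver. Nearly all of that was Itgam, singled out after its values were seen, at 53539 in null and 54132 in wild-type marrow, and 85201 in null and 105022 in wild-type fetal liver. Of 9 hepatocyte genes, 3 in null and 1 in wild-type marrow were detected, summing to 78.7 and 35.3, and 2 in null and 4 in wild-type fetal liver, summing to 103 and 627. The highest hepatocyte sum was thus also that of wild-type fetal liver. Immediate-early genes summed to 5071 in null and 31375 in wild-type marrow, and 4643 in null and 3668 in wild-type fetal liver. The part of these cells or of handling in the member differences was not tested.

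Of the members measured on all 4 arrays, Bad had the widest range, 1.33 log2 or 2.51-fold, followed by Bax (2.43-fold), Bcl2l1 (2.35-fold), Mcl1 (2.11-fold), Bcl2 (2.03-fold), Bbc3 (1.77-fold) and Bak1 (1.71-fold). The 4 features whose pattern over the arrays came nearest to that of Bad were Gm4416, LOC100044346 and 2 probes without a gene name, at root mean square distances of 0.012 to 0.015 log2 after centring. With 4 points such likeness was common: 1044 of 11176 genes lay within 0.25 log2.

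Of the other BCL2 family genes, 14 of 16 were on the array, and Bcl2a1c, Bcl2l10, Bmf, Hrk and Bcl2l14 were well above background on none. In fetal liver 0 of 5 compared were at least 2-fold higher in null and 1 lower, against 15.4% and 13.5% of all genes. This was Bcl2l12, at 64.9 in null and 142 in wild type (2.19-fold). It was under 2-fold in 4 of 12 other settings, between −0.63 log2 with spike-ins and −0.99 with the median of all genes subtracted. In marrow 1 of 9 was higher and 2 lower, against 4.54% and 7.74% of all genes. The effector relative Bok read 41.8 in null and 2.66, not well above background, in wild type (at least 3.76-fold higher). The mitophagy receptors Bnip3 (103 in null, 218 in wild type) and Bnip3l (27.1 and 78.5) were 2.12-fold and 2.90-fold lower in null marrow. With normexp Bok was at 0.69, Bnip3 at −0.88 and Bnip3l at −0.67 log2, and Bnip3 was under 2-fold in 4 of 11 settings. Between null marrow and null fetal liver 4 of 9 were higher and 2 lower, against 10.5% and 27.1% of all genes. Bok was at least 3.33-fold and Bcl2l12 3.00-fold higher, and with normexp they were at 0.24 and 0.89 log2.

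Downstream of the mitochondria, 18 genes of the apoptosome and caspases were on the array. In fetal liver 4 of 15 compared (26.7%, against 15.4% of all genes) were at least 2-fold higher in null and 0 lower. Aifm1, a mitochondrial flavoprotein, read 473 in null and 159 in wild type (2.98-fold), the executioner Casp6 was at least 2.54-fold higher and the caspase inhibitor Xiap at least 2.35-fold higher. With normexp, Casp6 was at 0.00 and Xiap at 0.08 log2. In marrow 0 of 14 differed by 2-fold in either direction, against 12.3% of all genes. Between wild-type marrow and wild-type fetal liver 6 of 14 (42.9%, against 13.1%) were higher and 1 lower. Aifm1 was 4.30-fold and Casp2 3.93-fold higher. Apaf1, the scaffold of the apoptosome, and Birc3 were well above background on no array. The fetal liver genotype comparison and the one between the wild types share the wild-type fetal liver array. Between null marrow and null fetal liver, without that array, 3 of 15 were higher and 3 lower, against 10.5% and 27.1% of all genes.

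Much of the death receptor arm was not detected: Fas, Fasl, Ripk1, Tnfrsf1a and Tnfsf10 were well above background on no array, and 4 of 10 genes could be compared in each genotype comparison. Tnfrsf10b, the mouse TRAIL death receptor, was the 1 at least 2-fold lower in each, at 30.9 in null and 61.9 in wild-type fetal liver, just at 2-fold, and at 10.3, not well above background, in null against 23.2 in wild-type marrow (at least 2.26-fold). Lower by 2-fold were 13.5% of all genes in fetal liver and 7.74% in marrow. Tnfrsf10b was under 2-fold in fetal liver with spike-ins (−0.50 log2), normexp (−0.63) and the median of all genes subtracted (−0.86), and in marrow with normexp (−0.25) and quantile normalization (−0.98).

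Genes of the p53 and FoxO arm, which induce Bbc3, Pmaip1 and Bcl2l11 or are induced beside them, were higher in null fetal liver or lower in null marrow where they passed 2-fold, with Phlda3 as the exception. In fetal liver 2 of 13 compared (15.4%, the share of all genes) were higher in null and 0 lower. Sesn2, a stress-induced metabolic regulator, read 209 in null and 28.6 in wild type (7.32-fold), and Mdm2, the ubiquitin ligase of p53, 219 and 62.7 (3.49-fold). With normexp they were at 0.99 and 0.84 log2, under 2-fold. In marrow 1 of 12 was higher and 3 lower, against 7.74% of all genes lower: Sesn2 was at least 7.27-fold, Sesn1 at least 2.77-fold and Gadd45a 2.32-fold lower in null, and Phlda3 2.08-fold higher. With normexp Sesn1 was at −0.46 and Phlda3 at 0.87 log2. Null fetal liver was thus the array with the most Sesn2 and Mdm2 and the only 1 with Pmaip1 above background. The other 11 genes compared in fetal liver were under 2-fold and ran in both directions. Among them Gadd45a was at 0.94, E2f1 at −0.93 and Cdkn1a at or below −0.88 log2. Ccng1, Zmat3, Trp53inp1 and Foxo4 were well above background on no array. Between null marrow and null fetal liver 6 of 12 were lower, against 27.1% of all genes, and 0 higher, led by Sesn2 (at least 18.0-fold) and Mdm2 (8.56-fold).

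For survival signalling in red cell precursors, 2 of 10 compared were higher and 1 lower in null fetal liver, close to the 15.4% and 13.5% of all genes. Jak2 was at least 4.80-fold higher and the stem cell factor receptor Kit 3.77-fold higher (362 in null, 96.0 in wild type), while the erythropoietin receptor Epor was 2.34-fold lower (706 and 1655). Jak2 was at 0.60 log2 with normexp and Epor at −0.73 with spike-in scaling. Between wild-type marrow and wild-type fetal liver 3 of 9 were higher (13.1% of all genes were), Kit by 4.31-fold, Stat5b by 2.71-fold and Stat5a by 2.66-fold. Another 2 were lower (31.9% of all genes were), Cish by 2.35-fold and Epor by 2.11-fold, and both turned in sign with spike-in scaling, at 0.11 and 0.26 log2. The kinases Pim1 and Pim2 were well above background on no array.

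Of genes that control the stability or binding of BCL2 proteins, 3 of 9 compared (33.3%, against 15.4%) were higher in null fetal liver and 0 lower. Huwe1, a ubiquitin ligase of MCL1, read 2419 in null and 494 in wild type (4.89-fold). Usp9x, a deubiquitinase of MCL1, was at least 2.53-fold higher, and at 0.06 log2 with normexp. Huwe1 and Usp9x act on MCL1 in opposite senses. Mcl1 RNA itself, by the probe that stood for it, was within 0.25 log2 between these arrays, and at 0.75 with spike-in scaling. The other Mcl1 probe was well above background on neither. In marrow Huwe1 went the other way, at 226 in null and 611 in wild type (2.71-fold lower), and was the 1 of 8 that passed, against 7.74% of all genes lower. Huwe1 passed 2-fold in the same direction under all 12 other settings in both genotype comparisons. Other probe rules, background filters and the authors' table left its values as they were, so they are not separate checks.

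**Figure D5:**
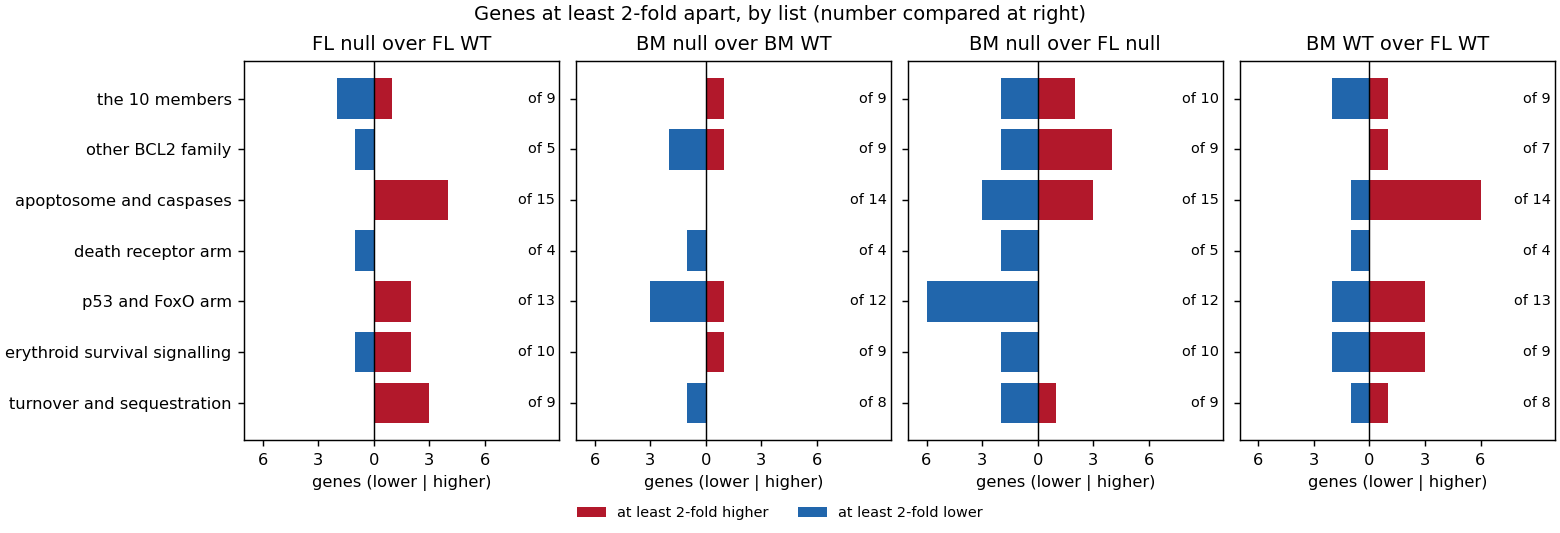
Number of genes at least 2-fold higher (right of 0) or lower (left of 0) in each of 7 lists, for the 2 genotype and 2 source comparisons, with the number compared at the right edge. The caspase list has 4 of 15 higher and 0 lower in null fetal liver and no bar in null marrow, and the p53 and FoxO list has 6 of 12 lower between null marrow and null fetal liver.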

How the data were processed

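RNA was measured on 4 one-colour Agilent arrays, 1 per group, with groups taken from the sample titles. The deposited values used are processed spot intensities from Agilent Feature Extraction 10.7.3.1 (protocol GE1_107_Sep09), background-subtracted and detrended within the array with no step between arrays, per the file headers. The mean and local background intensities used with normexp were as scanned, per the file headers, and the authors' series table holds the same processed intensities. The flags for outliers and for signals well above background are those of Feature Extraction.

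Control spots and outlier spots (95 to 135 per array) were left out, spots of a probe averaged, and log2 intensities scaled to 1 common 75th percentile, taken over probes detected on every array. A gene was represented by its brightest probe on average. Names came from the files, updated through a RefSeq table (GRCm38.p6), which gave 26048 probes a name through their accession, 3193 through the symbol and 929 through a synonym; 9248 kept the name in the files. A gene that neither array of a pair detected was not compared. Where 1 array was dim, its signal was replaced by the higher of its floor and its own value, and the difference is a bound, entered as such in medians. In the setting with all probes of a gene averaged, dim probes entered the average with their own values. A pair of single arrays allows no test, and calls were made by size, at 2-fold (difference of differences: 4-fold).

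The 1 model with a residual was limma 3.58.1 (R 4.3.3), source plus genotype over all 4 arrays, 2 per genotype, with two-sided p-values adjusted after Benjamini and Hochberg across 16250 genes. For this fit the highest of the floors, 19.3, was the lowest value allowed. Both steps were run on simulated data with planted differences and generated noise. That checks the code and does not measure the error of calls between single arrays. Named were all members by every probe, up to 3 called genes per list, direction and comparison with the widest difference, Ezh2, and the 4 features most like the widest-ranging member. Some genes that this rule would name are not reported here. The members and lists were chosen with earlier results of these data known. Alternatives were 4 other scalings, normexp (offset 50), the authors' table, 2 other probe rules, 2 other background filters and removal of a trend on probe position; subtraction of the median of all genes was added after seeing the data. The number of arrays limits the precision.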

Additional observations from a re-analysis of the deposited data

Results flagged for a closer look

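Bcl2l11 was picked out because its genotype difference pointed opposite ways in the sources. It was at least 8.92-fold lower in Ezh2-null than in wild-type fetal liver (−3.16 on the log2 scale) and at least 2.85-fold higher in Ezh2-null than in wild-type marrow (1.51). Each value is 1 array against 1 array, both are bounds, and the difference between the sources was not tested.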

How the results depend on the processing

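No paired analysis was possible because each group has 1 array. Of the members at least 2-fold apart by genotype in fetal liver (3), 1 was left with detection required on every array and 5 with the position trend removed. Of all genes, 1412 were higher and 1589 lower of 11177 with detection on every array. With the trend removed these were 2926 and 1263 of 16257. In marrow by genotype (1) there were 0 with normexp and 0 with detection on every array. All genes gave 172 higher and 199 lower of 15269 with normexp, and 306 and 471 of 11177 with detection on every array. Between the wild types (3) there were 5 with spike-in scaling, 5 with all probes averaged and 1 with detection on every array. Over all genes these settings gave 6199 higher and 333 lower of 15382, 1773 and 4433 of 15129, and 1408 and 3431 of 11177. With probes averaged, Bcl2l1 (1.15 log2) and Mcl1 (1.53) were added, and each average took in an undetected wild-type fetal liver value without the floor. Between the nulls (4) there was 1 with normexp and 1 with detection on every array. Among all genes there were 710 higher and 2290 lower of 16670 with the first, and 1215 and 2447 of 11177 with the second. The source term passed 1 member (Pmaip1, limma adjusted p 0.00509) in place of 0 without a background filter. Pmaip1 was well above background on null fetal liver alone, and its other 3 values in that fit lay below the floors of their arrays. Detection on every array leaves out Bcl2l11, Pmaip1 and Bid by construction, and the normexp offset compresses dim signals; other causes were not tested. Of the 80 recomputed counts over members, 70 stayed within 1.5 times. Many of these 70 were counts of 0 that stayed at 0, for the difference of differences and the additive fit. The share is therefore no measure of how stable the 2-fold calls were. Of differences of at least 2-fold, those that turned in sign between the wild types were Bax (0.06), Trp73 (0.34), Epor (0.26) and Cish (0.11) with spike-in scaling, and between the nulls Mcl1 (0.64) with probes averaged. Of the members under 2-fold between the wild types, Bcl2 (0.51), Mcl1 (0.70), Bad (0.43) and Bcl2l1 (1.03) turned with spike-in scaling. Scaling moved all genes: with spike-ins 84.2% of genotype calls in fetal liver were higher in null, against 53.3%, and 94.9% against 29.1% were higher in marrow between the wild types. Fetal liver genotype calls over all genes were 794 higher and 1059 lower with normexp, against 2502 and 2196. The genotype term passed 140 of 31703 genes without a background filter, 14 with normexp, 8 with the percentile over all probes and 1 with detection on every array; the source term passed between 0 and 1398.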
